A study of Mus musculus with 40 samples.

Results

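H3K9me2 was examined inside annotated gene bodies that gave almost no RNA in control mouse oocytes. The members were 7679 windows of 10 kb, 3.12% of the 245905 autosomal windows (272158 windows in all). Each lay wholly inside a transcript locus annotated to a gene, with a mean below 0 (log2 of RPM, reads scaled to the library total) over the 6 control RNA libraries, and overlapped no locus with a mean of 2 or more. Control RNA therefore chose the members, and the 6 H3K9me2 libraries took no part in the choice. The windows fell in 1795 host loci of 1724 genes. The labels describe 40 samples of germinal vesicle oocytes, the full-grown oocytes held before meiotic maturation, pooled at 100 to 200 per sample from mice of 22 to 25 days. The genotypes were control, G9a cKO (G9a deleted conditionally) and G9a-Glp cDKO (G9a and Glp both deleted conditionally). H3K9me2 was measured in 2 libraries of each by native chromatin immunoprecipitation from few cells, with 250 ng of antibody. The Cre driver and the strain are not given in the sources used here, and input and IgG libraries were not analysed here. The labels do not say that the libraries came from separate animals, so p-values measure the spread between these libraries, which may be technical.

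Dimethylation of lysine 9 on histone H3 is a mark of inactive chromatin that G9A (gene Ehmt2) and GLP (gene Ehmt1) place together as a complex. It typically covers broad domains, including long tissue-restricted genes that a cell does not use, and transcribed gene bodies tend to carry less of it. In growing oocytes transcription also directs DNA methylation to gene bodies, so silent genes differ from transcribed ones in more than this mark.

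The host genes include neuronal adhesion proteins, ion channels, extracellular matrix proteins, developmental transcription factors and solute carriers. The promoters of 4 of them are shown because 3 carried the losses described below (Inpp4b, Slc9a9, Ebf4) and 1 did not pass any test (Gabrb1), and because they differ in content of the dinucleotide CG. Each is the 250 bases before the annotated start, 5′ to 3′ on the strand of the gene, from RefSeq (GRCm38.p6), with every CG in capitals. CG reads the same on both strands. They lie at chr8:81342312-81342561 (Inpp4b, plus strand, 19 CG), chr2:130295689-130295938 (Ebf4, plus strand, 31 CG), chr9:94669642-94669891 (Slc9a9, plus strand, 3 CG) and chr5:71699682-71699931 (Gabrb1, plus strand, 6 CG).
Inpp4b: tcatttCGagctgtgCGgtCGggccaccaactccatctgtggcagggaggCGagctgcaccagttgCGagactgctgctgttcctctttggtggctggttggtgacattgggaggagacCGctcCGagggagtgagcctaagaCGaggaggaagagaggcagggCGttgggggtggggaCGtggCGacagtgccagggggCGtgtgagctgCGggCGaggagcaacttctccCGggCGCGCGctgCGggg
Ebf4: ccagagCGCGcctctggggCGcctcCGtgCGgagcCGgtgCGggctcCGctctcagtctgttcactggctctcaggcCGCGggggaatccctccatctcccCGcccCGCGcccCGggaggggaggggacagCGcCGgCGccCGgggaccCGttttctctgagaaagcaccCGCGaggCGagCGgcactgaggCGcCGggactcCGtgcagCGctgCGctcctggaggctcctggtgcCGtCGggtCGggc
Slc9a9: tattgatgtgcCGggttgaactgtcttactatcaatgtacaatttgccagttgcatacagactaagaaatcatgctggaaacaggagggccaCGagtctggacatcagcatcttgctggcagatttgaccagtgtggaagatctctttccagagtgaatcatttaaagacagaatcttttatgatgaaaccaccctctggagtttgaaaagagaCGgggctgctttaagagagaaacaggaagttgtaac
Gabrb1: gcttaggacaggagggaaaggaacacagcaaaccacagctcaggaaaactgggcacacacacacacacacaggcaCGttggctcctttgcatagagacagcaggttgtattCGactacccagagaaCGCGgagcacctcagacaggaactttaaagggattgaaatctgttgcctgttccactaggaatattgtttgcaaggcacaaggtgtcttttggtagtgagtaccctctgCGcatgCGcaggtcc
The 3 gene bodies with losses thus follow promoters both dense and sparse in CG. Among hosts on the strand of their gene, 664 of 1370 had a RefSeq promoter within 5 kb of the start of the locus. These 300-base promoters held a median of 15 CG, against 7 over all 32851 promoters, and 98.0% of them held at least 1, against 94.6% of all. A promoter was called CpG-rich at an observed over expected CG ratio above 0.6 and a GC content above 50%, which 47.1% of the hosts met and 33.3% of all promoters.

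The silence of the hosts was a property of these loci in these libraries. Over the 6 control RNA libraries together a host had a median of 4 reads and at most 14, and 361 of 1795 had none. As a description of the threshold, the 483 windows in hosts with a control RNA mean from −0.1 to 0 averaged 4.12 RPM of H3K9me2 in controls, and the 391 windows of loci from 0 to 0.1 averaged 4.32 RPM. The 483 members just inside the threshold were not below both controls (4.09 and 4.16 RPM) in any mutant library. They had 4.12 and 4.41 RPM in G9a cKO and 4.12 in each cDKO library. The host overlapped its gene on the strand of the gene in 1449 loci and only on the other strand in 297, and 49 lay within 2 kb of the gene. Of the 1601 genes whose largest locus is silent, 63 (3.94%) had another locus at a control RNA mean of 2 or more, so for those the symbol names a silent stretch and not a silent gene. The median host was 30.2 kb long and the longest 899 kb. Hosts with 10 or more member windows numbered 186 and held 46.6% of the members, while 678 hosts held 1 window.

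Sequencing depth differed with genotype. The control H3K9me2 libraries were scaled to 7048784 and 19128881 reads, those of G9a cKO to 1857144 and 1109191, and those of cDKO to 1723142 and 1881848. A member window therefore held on average 29.2 and 80.3 reads in controls but 4.26 to 7.42 in the mutants, and an effect of depth on any difference between mutant and control cannot be told apart from genotype. Values are shares of each library, so a change in the total amount of H3K9me2 cannot be seen. Oocyte markers were high in the 11 RNA libraries. The 9 of 10 oocyte markers that could be matched had at least 10 RPM and summed to 13838 to 17420 RPM, the 10 granulosa markers summed to 310 to 418 RPM with 3 of them (Cyp19a1, Nr5a2, Serpine2) at 10 RPM or more, and the 2 matched blood markers had no read. Ehmt1 had 31 and 36 RNA reads in cDKO and 144 to 173 in the matching controls. Ehmt2 had 5 in each cDKO library and 8 to 30 in the same controls. In G9a cKO it had 5, 11 and 2 reads and in the matching controls 9 to 13, so RNA of the library labelled G9a cKO replicate 2 lay within the control range. That check covers RNA and not the H3K9me2 libraries.

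Silent gene bodies carried more H3K9me2 than transcribed gene bodies in control oocytes, and less in both mutants. Silent windows averaged 4.14 and 4.20 RPM in the control libraries, 3.77 and 3.84 in G9a cKO, then 3.85 and 3.94 in cDKO. The 37768 windows inside annotated loci with a control RNA mean of 4 or more averaged 3.52 and 3.49 RPM in controls, 4.02 and 4.08 in G9a cKO, then 4.39 and 4.28 in cDKO. The silent level lay below both controls in all 4 mutant libraries while the transcribed level lay above both, with no overlap between mutant and control in either class. Windows outside all loci also lay below both controls in the mutants, so the drop was not particular to silent gene bodies. They averaged 3.89 and 3.94 RPM in controls, 3.70 and 3.64 in G9a cKO, then 3.57 and 3.61 in cDKO. Expressed as a log2 ratio of silent over transcribed windows, the value was 0.25 ± 0.02 (SD, n = 2) in controls, −0.09 ± 0.00 in G9a cKO and −0.15 ± 0.05 in cDKO. Those ratios correspond to 1.19-fold, 0.939-fold and 0.899-fold. The log2 difference from control was −0.34 in G9a cKO and −0.40 in cDKO, and that between the mutants was −0.06. Each gave p = 0.33 in an exact two-sided permutation test over libraries, the smallest p that 2 against 2 libraries allow. Both mutants are set against the same 2 control libraries. Over all 6 libraries the mean ratio was 0.00 (exact sign-flip permutation test, two-sided, p = 1), since 2 libraries were positive and 4 negative.

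**Figure D1:**
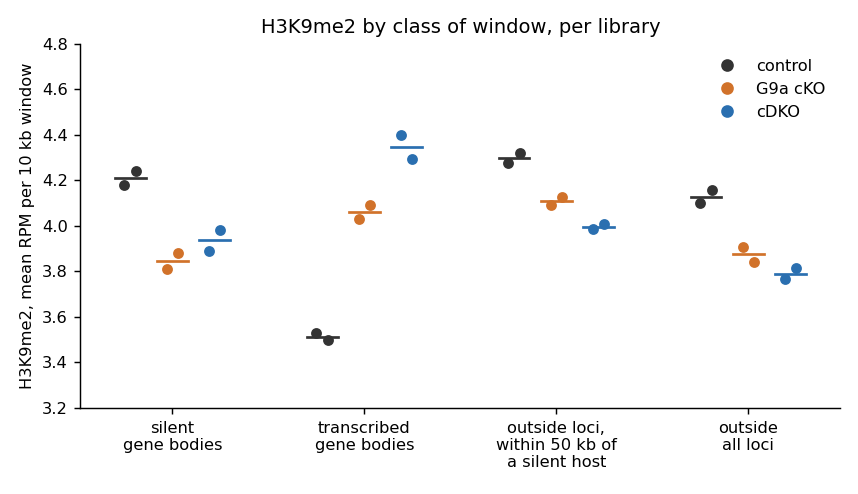
Mean H3K9me2 (RPM per 10 kb window) in each of the 6 libraries for 4 classes of window with a read in at least 1 library; points are libraries, bars are the mean of 2. Silent gene bodies stand at 4.18 and 4.24 RPM in controls and at 3.81 to 3.98 in the mutants, while transcribed gene bodies go from 3.53 and 3.50 to between 4.03 and 4.40. The vertical axis does not start at 0.

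The direction of change followed the RNA level of the surrounding locus in controls. Windows whose highest annotated locus had a control RNA mean below −0.5 averaged 4.23 RPM of H3K9me2 in controls, 3.82 in G9a cKO and 3.93 in cDKO. From 1 to 2 the 3 genotypes averaged 3.99, 3.99 and 4.06 RPM. At 6 or more they averaged 3.36, 3.99 and 4.37 RPM. Control levels were thus highest at the silent end, and cDKO levels highest at the transcribed end. Measured against all autosomal windows, the silent class stood at a log2 enrichment of 0.10 and 0.11 in controls, −0.05 and −0.02 in G9a cKO, then −0.01 and 0.02 in cDKO. The differences from control were −0.14 in G9a cKO and −0.10 in cDKO, and cDKO stood 0.04 above G9a cKO (exact two-sided permutation tests over libraries, p = 0.33 each). Against windows outside loci the difference from control was −0.04 in G9a cKO, and that in cDKO turned to 0.027. Exact two-sided permutation tests over libraries gave p = 0.33 for each. By medians every mutant library stood at 0, so the mutants differed by 0. A mutant window holds few whole reads, so equal medians cannot show a small difference.

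Against DNA outside all transcript loci, the size and direction of the difference depended on which windows were used. All 6 libraries gave a positive log2 ratio over the 131144 windows outside loci, with a mean of 0.09 (exact sign-flip permutation test, two-sided, p = 0.031, the smallest that 6 libraries allow). However, 5.25% of those windows had no read in any library, against 0.99% of the silent windows. Without windows lacking reads the mean was 0.02 (exact p = 0.156). Against windows at least 50 kb from any locus all 6 libraries were positive, at 0.20 to 0.28, with a mean of 0.25 (exact p = 0.031). Against the 8301 windows with a read outside loci but within 50 kb of a silent host, all 6 libraries were negative, with a mean of −0.05 (exact p = 0.031). These windows beside the hosts were lower in the mutants too, with 4.28 and 4.32 RPM in controls against 4.09 and 4.13 in G9a cKO, then 3.99 and 4.01 in cDKO.

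The difference from control was larger in longer hosts. In hosts under 50 kb the windows with a read averaged 4.23 RPM in controls, 4.20 in G9a cKO and 4.19 in cDKO. From 200 to 500 kb they averaged 4.09, 3.49 and 3.59 RPM, and in the 4 hosts above 500 kb 4.36, 3.44 and 3.73 RPM. Short silent hosts thus differed little between genotypes, while in hosts from 50 kb upward both libraries of each mutant lay below both controls. The log2 ratio of windows in hosts of 200 kb or more over those in hosts under 50 kb was −0.05 and −0.02 in controls, −0.27 and −0.27 in G9a cKO, then −0.23 and −0.20 in cDKO. The difference from control was −0.24 in G9a cKO and −0.18 in cDKO (exact two-sided permutation tests over libraries, p = 0.33 each). A similar shift with length was seen in transcribed hosts, at −0.19 and −0.21, so the slope was not particular to silent genes. Within 20 kb of the host start the means were 4.21, 4.02 and 4.07 RPM in control, G9a cKO and cDKO. At 200 to 500 kb from the start they were 4.08, 3.32 and 3.6 RPM. These distances cannot be told apart from host length, because the first pools 1774 hosts and the second only 62 long ones. In the 201 hosts of at least 100 kb, the gap to control did not widen steadily over the first 100 kb. The same 3 means were 4.02, 3.49 and 3.68 RPM at the start window, 4.27, 3.64 and 3.83 at 50 kb, and 4.18, 4.06 and 3.97 at 100 kb.

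**Figure D2:**
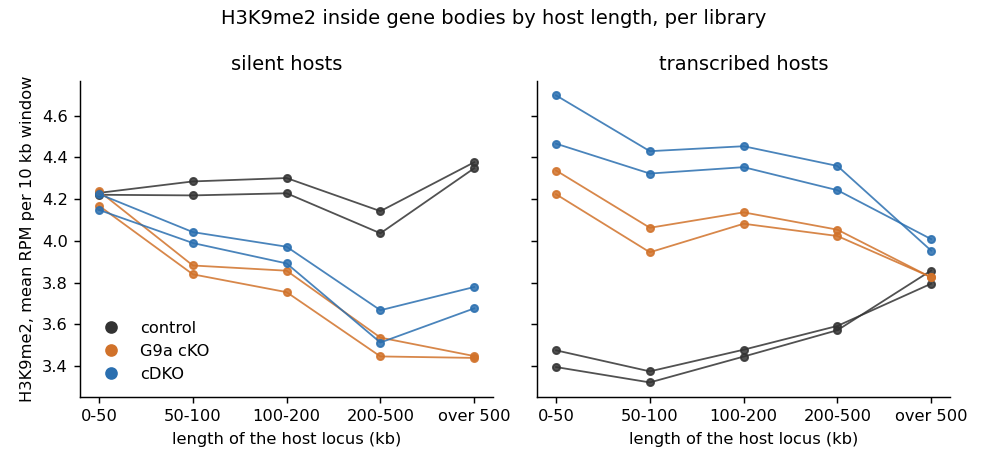
Mean H3K9me2 (RPM per 10 kb window with a read) against the length of the host locus in kb, 1 line per library, for silent hosts (left) and transcribed hosts (right). In silent hosts the controls stay between 4.04 and 4.38 RPM while the G9a cKO libraries go from 4.17 and 4.24 down to 3.44 and 3.45; in transcribed hosts the controls lie lowest up to 500 kb. The vertical axis does not start at 0.

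Members differed from window to window and from host to host. Over members with a read, the part of the variation shared by both libraries of a genotype amounted to a coefficient of variation of 25.0% in controls, 48.1% in G9a cKO and 28.5% in cDKO. In hosts with 10 or more windows the differences between hosts took 58.7% of the shared variation in controls, 28.9% in G9a cKO and 46.3% in cDKO. The wide spread over windows in G9a cKO was common to other windows: 23.9%, 44.8% and 24.9% in control, G9a cKO and cDKO over transcribed windows, and 24.7%, 49.3% and 29.1% outside loci. The correlation of both libraries of a genotype over member windows was 0.72, 0.52 and 0.35, a description over 7603 windows that share a library and its depth. CpG-rich and CpG-poor hosts averaged 4.39 and 4.33 RPM in controls, 3.66 and 3.86 in G9a cKO, then 4.00 and 3.95 in cDKO. Both CpG-rich libraries lay slightly above both CpG-poor ones in controls and below both in G9a cKO, and the classes overlapped in cDKO. The median log2 change in G9a cKO was −0.28 over the 143 CpG-rich hosts tested and −0.13 over the 162 CpG-poor ones. In cDKO it was −0.14 and −0.09. The difference between these classes was not tested.

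Single windows gave few stable calls. In G9a cKO limma called 99 of 7603 member windows higher and 11 lower (adjusted p under 0.05), which is 1.3% and 0.145%, near the 1.75% and 0.102% called over all 255057 windows tested. The direction of these calls turned without G9a cKO replicate 1, to 89 higher and 350 lower among members (3843 and 9771 over all windows), and voom on recovered reads gave 480 higher and 259 lower. None was called when only the 4 libraries compared were fitted, without G9a cKO replicate 2, or without either cDKO library. Over all windows the voom fit of G9a cKO gave 22002 higher and 7655 lower. In cDKO limma called 0 member windows, as over all windows (0%). At an unadjusted p under 0.05 there were 590 members (7.76%, with 9% over all windows). The cDKO fit by limma voom on recovered reads called 180 members, 151 higher and 29 lower, with 7508 and 770 over all windows. Between the mutants limma also called 0 (0% over all windows). There 1013 members had an unadjusted p under 0.05 (13.3%, with 13.4% over all windows), and voom called 1 member, with 20 higher and 15 lower over all windows.

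Summing the reads over each gene body gave 736 host genes with a mean of 10 RPM or more over the 6 libraries, out of 1601. These tested hosts had a median of 5 windows and the others 1, so the rest of the section describes the longer silent genes. Some hosts passed that filter only through the group where they were higher: 10 of those called higher and 4 of those called lower in G9a cKO, and 3 and 1 in cDKO. In G9a cKO 125 hosts were called lower (17% of those tested) and 74 higher (10.1%), where all 5694 annotated gene bodies tested gave 7.22% lower and 19.1% higher. In cDKO 43 were called lower (5.84%) and 30 higher (4.08%), against 2.46% lower and 21.3% higher over all gene bodies. The median log2 change was −0.16 for silent hosts and 0.14 for all gene bodies in G9a cKO, and −0.09 and 0.25 in cDKO. Lower calls were long, with a median length of 105 kb in G9a cKO and 199 kb in cDKO, where all tested hosts had 60.2 kb. Higher calls, at 51.4 and 53.3 kb, lay nearer that median. Lower calls also summed more windows, with a median of 10 and 19. Host length therefore cannot be told apart from the ease of calling a change. Centring each library on its median gene body took the median of all gene bodies to −0.05 and −0.01 and changed the split to 218 lower and 49 higher in G9a cKO and to 130 lower and 8 higher in cDKO. Over all gene bodies there were 407 lower and 1208 higher calls in G9a cKO with no filter. In cDKO with 2 reads added there were 143 and 1514. The median change of silent hosts lay below that of all gene bodies under every alternative tried in both mutants. Without control replicate 2, for instance, it was −0.15 against 0.13 in G9a cKO. Among silent hosts alone, the excess of lower over higher calls did not hold in every alternative. In G9a cKO there were 37 lower and 32 higher calls without control replicate 1, 31 lower and 37 higher without control replicate 2, and 135 lower and 131 higher with no filter. In cDKO there were 4 lower and 7 higher without control replicate 1, 2 and 6 without control replicate 2, 4 and 6 without cDKO replicate 1, and 46 and 53 with 2 reads added. The cDKO calls numbered 148 or 151 without G9a cKO replicate 1 or 2. Without the 63 hosts whose gene has another locus at 2 or more, G9a cKO had 120 lower and 71 higher calls and cDKO 39 and 28.

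**Figure D3:**
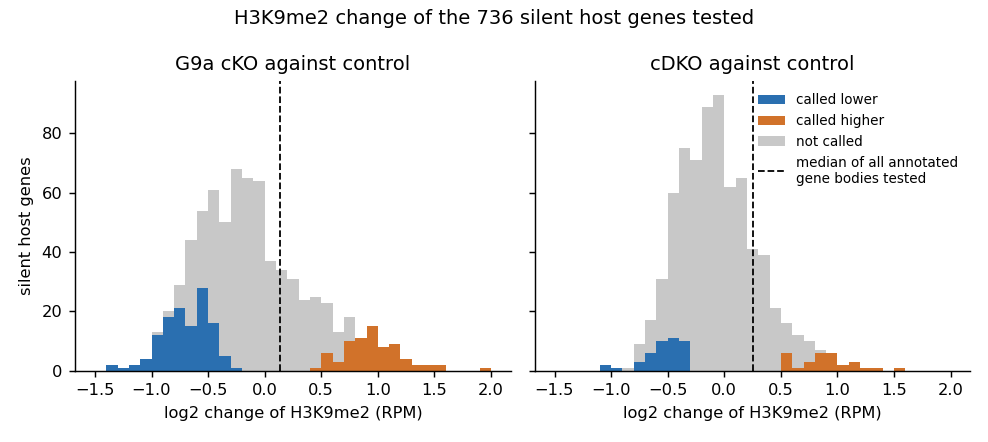
Histogram of the limma log2 change of H3K9me2 for the 736 silent host genes tested, G9a cKO (left) and cDKO (right) against control; colours mark hosts called lower or higher at adjusted p under 0.05. The bulk lies left of the dashed line, the median of all 5694 annotated gene bodies (0.14 and 0.25), with 125 and 43 hosts called lower and 74 and 30 higher.

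The longest silent hosts showed the whole range of behaviour. Cntnap5a (ENSMUSG00000070695, chr1:115684756-116583317), a neurexin-related synaptic adhesion protein with 89 member windows, had 4.87 and 4.77 RPM per window in controls, 4.17 and 4.00 in G9a cKO, then 3.8 and 3.86 in cDKO. All mutant libraries lay below both controls, and the log2 change was −0.24 (SE 0.06, adjusted p = 0.0162) in G9a cKO, with −0.33 (SE 0.06, adjusted p = 0.00504) for cDKO. Both calls were lost when either control library was left out, and that in cDKO also without cDKO replicate 1, with an adjusted p of up to 0.191 and 0.0661. Inpp4b (ENSMUSG00000037940, chr8:81342556-82125036), a phosphatase of phosphoinositide signalling with 77 windows, had 3.64 and 3.67 RPM in controls, 2.81 and 2.62 in G9a cKO, then 3.27 and 3.37 in cDKO. Its change in G9a cKO was −0.43 (SE 0.08, adjusted p = 0.00147) and was called under every alternative tried. In cDKO its value was −0.14 (adjusted p = 0.201), although both libraries lay below both controls.

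Slc9a9 (ENSMUSG00000031129, chr9:94669909-95230445), an endosomal sodium/proton exchanger with 56 windows, had the largest loss among the 10 longest. Its level was 4.68 and 5.09 RPM in controls, 3.18 and 3.28 in G9a cKO, then 3.84 and 3.81 in cDKO. The change was −0.59 (SE 0.08, adjusted p = 0.000298) in G9a cKO, called under every alternative tried, and −0.35 (SE 0.08, adjusted p = 0.0101) in cDKO, lost without control replicate 2 or cDKO replicate 1, with an adjusted p of up to 0.188. Gabrb1, a subunit of the GABA-A receptor, went from 3.84 and 3.93 RPM to 3.65 to 3.76 in the 4 mutant libraries and passed no test. Rbfox3, the neuronal splicing factor known as NeuN, stood at 4.82 and 4.96 RPM in controls and between 5.18 and 5.52 in the mutants, above both controls but not called. Dlgap1, a scaffold of the postsynaptic density, ranged from 3.4 to 4.18 RPM and its genotypes overlapped, and a further locus of that gene had a control RNA mean of 3.50. Dok6, an adaptor of receptor tyrosine kinases, had 3.49 and 3.59 RPM in controls and 2.99 to 3.42 in the mutants, with no call. Among the other 3 of the 10 longest, 1700007B14Rik, Luzp2 and AC238840.3, none was called in either mutant.

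**Figure D4:**
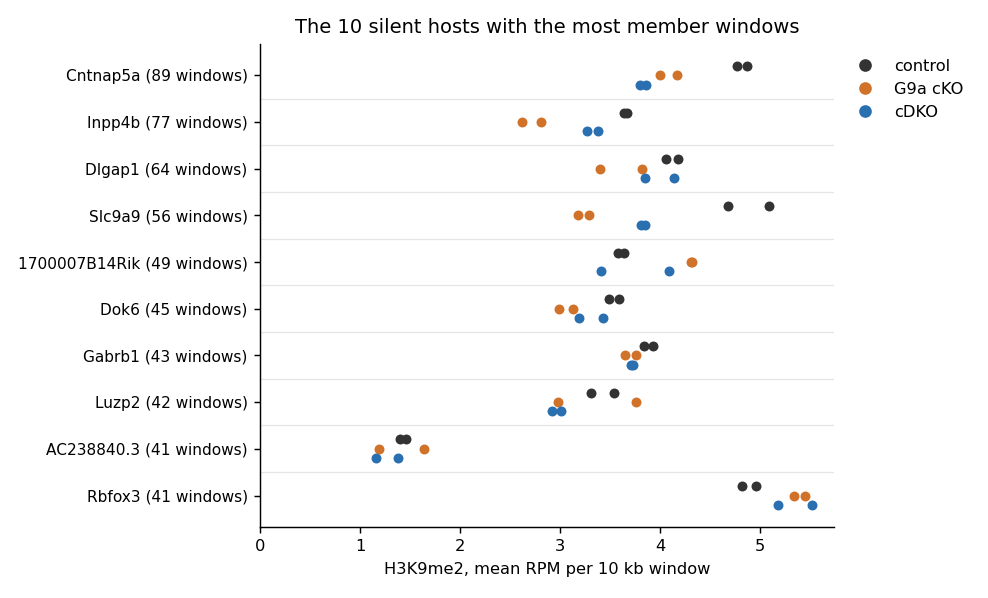
H3K9me2 (mean RPM per 10 kb member window) of the 10 silent host genes with the most member windows, each point 1 library. Slc9a9 shows the widest gap, from 4.68 and 5.09 RPM in controls to 3.18 and 3.28 in G9a cKO, while Rbfox3 lies above its controls in all mutant libraries.

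Over the 174 hosts with 10 or more windows, controls had a median of 4.32 RPM per window, G9a cKO 3.44 and cDKO 3.83. Of these hosts 63 were called lower and 12 higher in G9a cKO, and 31 lower and 2 higher in cDKO. Other annotated gene bodies of 10 or more windows (1723 tested) gave 214 lower and 376 higher calls in G9a cKO and 82 lower and 524 higher in cDKO. Control levels were highest in Gm12426 (6.17 and 6.06 RPM; the locus lies on the other strand than its gene), Srgap3, a GTPase-activating protein of neurons (5.58 and 5.85), Cnih3, an AMPA receptor auxiliary protein (5.42 and 5.87), Iqsec1 (5.62 and 5.64) and Galntl4 (5.53 and 5.51). Of these 5 hosts, Gm12426, Srgap3 and Galntl4 were called lower in both mutants and Iqsec1 in G9a cKO (adjusted p = 0.0295). The Iqsec1 call was lost without either control or G9a cKO replicate 2. These 5 were picked by high values in the same 2 control libraries that serve as the reference. The choice itself therefore favours lower values in the mutants, and the number called is a description. Srgap3 fell by 0.59 on the log2 scale in G9a cKO (adjusted p = 0.00365) and by 0.51 in cDKO (adjusted p = 0.0127), with mutant libraries at 3.53 to 4.54 RPM. Its call in G9a cKO held under every alternative tried and that in cDKO was lost without either control or cDKO replicate 2, at an adjusted p of up to 0.11. Iqsec1 had another locus with a control RNA mean of 7.54, so its gene is transcribed elsewhere. The lowest control levels, 0.244 to 1.48 RPM, were in Gm4070, Gm16429, BC061212, Intu and Gm7732. In these 5 hosts none was called, and Gm4070 was below the filter.

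The 5 largest called losses in G9a cKO were in Siah3, Cdh11, Cldn10, Boc and AC165441.1. Siah3, a member of the SIAH ubiquitin ligase family (chr14:75455982-75526141), went from 6.19 and 5.38 RPM in controls to 3.05 and 1.5 in G9a cKO (log2 change −1.39, SE 0.27, adjusted p = 0.00242). In cDKO it had 4.06 and 3.72 RPM, below both controls, and was not called. Cdh11, a mesenchymal cadherin (chr8:102632995-102736864), had 4.38 and 4.23 RPM in controls, 1.20 and 2.20 in G9a cKO, then 2.64 and 3.78 in cDKO. Its change in G9a cKO was −1.37 (SE 0.26, adjusted p = 0.00222). Cldn10, a claudin of tight junctions, fell by 1.23 on the log2 scale (adjusted p = 0.00347), and Boc, a co-receptor for hedgehog ligands, by 1.15 (adjusted p = 0.00123). These 4 calls held under every alternative tried. The unnamed gene AC165441.1 fell by 1.11 and was no longer called without either control. It passed the filter only through the libraries where it was higher, so no p is given.

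In cDKO the largest losses were in Adcyap1, which encodes the neuropeptide PACAP, Slc6a3, the dopamine transporter, and Mical2, an actin-oxidizing enzyme. Adcyap1 had 4.54 and 4.35 RPM in controls, 2.83 and 2.93 in G9a cKO, then 1.89 and 2.26 in cDKO (log2 change −1.06). It passed the filter only through the libraries where it was higher, so no p is given. Slc6a3 had 7.09 and 7.86 RPM in controls and 3.68 and 3.37 in cDKO (−1.05, SE 0.26, adjusted p = 0.0144), while its G9a cKO libraries, at 8.44 and 4.81, lay on both sides of the controls. Mical2 had 6.13 and 6.17 RPM in controls, 3.17 and 2.91 in G9a cKO, then 3.74 and 2.66 in cDKO. Its loss was called in both mutants, at −1.0 (adjusted p = 0.00158) and −0.95 (adjusted p = 0.00447), and under every alternative tried. Ebf4, a transcription factor of the early B cell factor family, fell by 0.76 in cDKO (adjusted p = 0.0121) and by 0.71 in G9a cKO (adjusted p = 0.0115), and Zfp827, a zinc finger protein, by 0.75 (adjusted p = 0.0349) and 0.98 (adjusted p = 0.00755). The cDKO calls of Slc6a3, Ebf4 and Zfp827 were lost without either control or cDKO replicate 1 (Slc6a3 and Zfp827 also without cDKO replicate 2), at an adjusted p of up to 0.253. In G9a cKO Ebf4 and Zfp827 were likewise lost without either control, at up to 0.162.

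Hosts called higher in G9a cKO had a median control level of 3.66 RPM per window, and those called lower 4.77 RPM. All tested hosts had a median of 4.38 RPM. The control level is also the reference of the change, so this order is partly built in. Mrps24 (chr11:5714971-5762432) went from 3.01 and 3.53 RPM in controls to 9.56 and 9.47 in G9a cKO, then 6.53 and 7.84 in cDKO, log2 changes of 1.55 (SE 0.19, adjusted p = 0.000196) and 1.14 (SE 0.19, adjusted p = 0.00258). That symbol belongs to a mitochondrial ribosomal protein gene with a transcribed locus elsewhere (control RNA mean 4.22), so the silent stretch is not the gene as a whole. Cyp2c67, a cytochrome P450 of the liver (chr19:39608842-39674020), went from 2.67 and 3.25 RPM to 8.79 and 7.51 in G9a cKO, then 7.45 and 5.49 in cDKO, changes of 1.47 (adjusted p = 0.000255) and 1.12 (adjusted p = 0.00287). The long non-coding locus 4932435O22Rik went from 4.65 and 4.86 RPM to 13.6 and 12.8 in G9a cKO, then 9.0 and 7.97 in cDKO. All 3 were called higher in both mutants under every alternative tried. Olfr836, an odorant receptor gene with 2 member windows, had 4.19 and 3.84 RPM in controls, 11 and 20.7 in G9a cKO, then 5.51 and 4.52 in cDKO, and 2900092C05Rik had 1.89 and 1.90 RPM in controls and 4.85 and 6.61 in G9a cKO. In cDKO the 5 largest gains also included Gm14443 (1.53) and Clca2 (1.28). Olfr836, 2900092C05Rik, Gm14443 and Clca2 passed the filter only through the mutant where they were higher, so their values are a description, with no test. Olfr836, Cyp2c67 and Gm14443 belong to families with close copies, whose reads cannot be assigned with certainty, and how such reads were counted is not given in the sources used here.

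Grouped by function, 213 of the 1601 host genes fell in 10 lists of gene families, and 110 of these were tested. Among extracellular matrix genes, 27 were hosts and 19 tested. In G9a cKO 7 were called lower and none higher, and in cDKO 4 lower and none higher, with median changes of −0.37 and −0.38. Beside this, 17% of silent hosts and 7.22% of all gene bodies were called lower in G9a cKO, and 5.84% and 2.46% in cDKO. Median changes over all gene bodies were 0.14 and 0.25. The same shares stand beside the counts of the lists that follow. The lists were not matched for host length. Of the 174 silent hosts with 10 or more windows, 63 were called lower in G9a cKO and 31 in cDKO, so a trait of a family cannot be told apart from length. Frem1, a basement membrane protein of embryonic epithelia, had 5.06 and 4.85 RPM in controls, 2.37 and 2.95 in G9a cKO, then 3.48 and 3.33 in cDKO, with changes of −0.90 (SE 0.14, adjusted p = 0.000725) and −0.53 (SE 0.14, adjusted p = 0.0183). Fbn1, the microfibril protein fibrillin, had 4.5 and 5.08 RPM in controls and 2.01 and 3.61 in G9a cKO (−0.82, adjusted p = 0.00951). The ADAMTS proteases Adamts16 and Adamts6 and their relatives Adamtsl1 and Adamtsl3 were called lower in G9a cKO by 0.36 to 0.72 on the log2 scale, as was Fbln2, a fibulin of elastic fibres, by 0.57. Adamtsl1 has another locus with a control RNA mean of 7.69. Hmcn1, a hemicentin, had 4.66 and 4.44 RPM in controls and 3.61 to 4.81 in the mutants, overlapping, and was not called. Frem1 and Fbn1 in G9a cKO were called under every alternative tried, and the other 5 were lost without at least 1 control library (Adamts6, Adamtsl1, Adamtsl3 and Fbln2 also without G9a cKO replicate 1), at an adjusted p of up to 0.34. The 4 calls in cDKO, Frem1, Adamts16, Adamtsl1 and Adamtsl3, were each lost without either control or cDKO replicate 1 (Frem1 and Adamts16 also without cDKO replicate 2), at up to 0.342.

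Developmental transcription factors included 26 host genes, of which 15 were tested, 7 were called lower in G9a cKO and 1 in cDKO. None was called higher. Over all gene bodies 7.22% were called lower in G9a cKO and 2.46% in cDKO. The median change of the listed factors was −0.48 in G9a cKO and −0.16 in cDKO. They included Ebf4 and Ebf2, of the early B cell factor family, and Bcl11b and Zbtb16, regulators of lymphoid lineages. Meis1, a homeodomain partner of HOX proteins, and Nr3c2, the mineralocorticoid receptor, were also among them. Zbtb16 went from 4.79 and 5.15 RPM to 3.33 and 3.55 in G9a cKO (−0.52, SE 0.12, adjusted p = 0.00721) and stood at 4.16 and 4.81 in cDKO, where the range overlapped the controls. Ebf1, the longest of the list at 38 windows, had 4.34 and 4.38 RPM in controls and 3.53 and 4.63 in G9a cKO, with no call. All 7 calls were lost without control replicate 2, those of Ebf4, Bcl11b, Meis1, Ebf2 and Nr3c2 also without control replicate 1, and those of Meis1, Ebf2 and Nr3c2 also without G9a cKO replicate 1, at an adjusted p of up to 0.317.

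Neuronal and cell adhesion proteins numbered 18, with 13 tested. Cdh11, Odz2 (a teneurin) and Cntnap5a were called lower in G9a cKO, and Odz2 and Cntnap5a lower and Csmd3 higher in cDKO. Odz2 had 4.53 and 4.58 RPM in controls, 3.25 and 3.26 in G9a cKO, then 3.41 and 3.69 in cDKO (−0.48, adjusted p = 0.00261, and −0.36, adjusted p = 0.0177). The 2 tested of 8 axon guidance genes were Unc5d, a netrin receptor, and Ephb2, an ephrin receptor. Unc5d had 4.71 and 4.83 RPM in controls, 2.60 and 2.55 in G9a cKO, then 3.02 and 3.85 in cDKO, a change of −0.88 (SE 0.13, adjusted p = 0.000408) and −0.48 (SE 0.13, adjusted p = 0.0177). Ephb2 went from 4.59 and 4.62 RPM to 3.86 and 3.45 in G9a cKO without a call. Of 31 ion channel and transmitter receptor genes, 19 were tested. In G9a cKO 3 were called lower, among them Kcnj15, a potassium channel, and Chrna7, an acetylcholine receptor, and Trpc6 was called higher. Kcnj15 was also called lower in cDKO. The G9a cKO calls of Cdh11, Odz2, Unc5d and Trpc6 held under every alternative tried. Those of Cntnap5a, Kcnj15 and Chrna7, and the cDKO calls of Odz2, Cntnap5a, Csmd3, Unc5d and Kcnj15, were lost without control replicate 2, at an adjusted p of up to 0.248. All of these but Chrna7 and Csmd3 were also lost without control replicate 1, and the 5 cDKO calls also without cDKO replicate 1 (Csmd3 also without cDKO replicate 2). Grik3, a kainate receptor subunit, went from 5.20 and 5.64 RPM in controls to 3.90 to 5.11 in the mutants, below both controls but with no call.

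Solute carriers formed the largest list, with 59 host genes and 27 tested. In G9a cKO Slc9a9, Slc27a6 and Slc39a14 were called lower and the neighbours Slc22a27, Slc22a28 and Slc22a29 on chromosome 19 higher. Slc22a27, an organic anion transporter, had 3.11 and 3.35 RPM in controls, 5.74 and 5.51 in G9a cKO, then 4.13 and 4.43 in cDKO (0.81, SE 0.15, adjusted p = 0.0018, and 0.41, adjusted p = 0.059). The Slc22a genes there are close copies of one another. In cDKO Slc9a9 and Slc6a3 were lower. Of 24 immune genes 9 were tested, and Cd47, Prkcq, Ikzf2 and Inpp4b were called lower in G9a cKO and none in cDKO. Of 4 sarcomere genes 3 were tested, with Actn2 lower in G9a cKO. The 12 cytochrome P450 and UDP-glucuronosyltransferase genes had 3 tested, among them Cyp2c67, called higher in both mutants, and none of 4 axonemal dynein and ciliary genes passed the filter. Slc8a1, the sodium/calcium exchanger of heart and neurons, went from 3.63 and 3.74 RPM in controls to 2.87 to 3.44 in the mutants, below both controls, with no call (adjusted p = 0.0535 in G9a cKO). Of the G9a cKO calls of solute carriers, immune and sarcomere genes, those of Slc27a6, Slc39a14, Slc22a29, Cd47, Prkcq and Ikzf2 were lost without control replicate 2 and Actn2 without control replicate 1, at an adjusted p of up to 0.32. Slc27a6, Slc39a14, Slc22a29, Prkcq and Ikzf2 were also lost without control replicate 1, Slc27a6, Slc39a14 and Prkcq without G9a cKO replicate 2, and Cd47 and Ikzf2 without G9a cKO replicate 1.

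**Figure D5:**
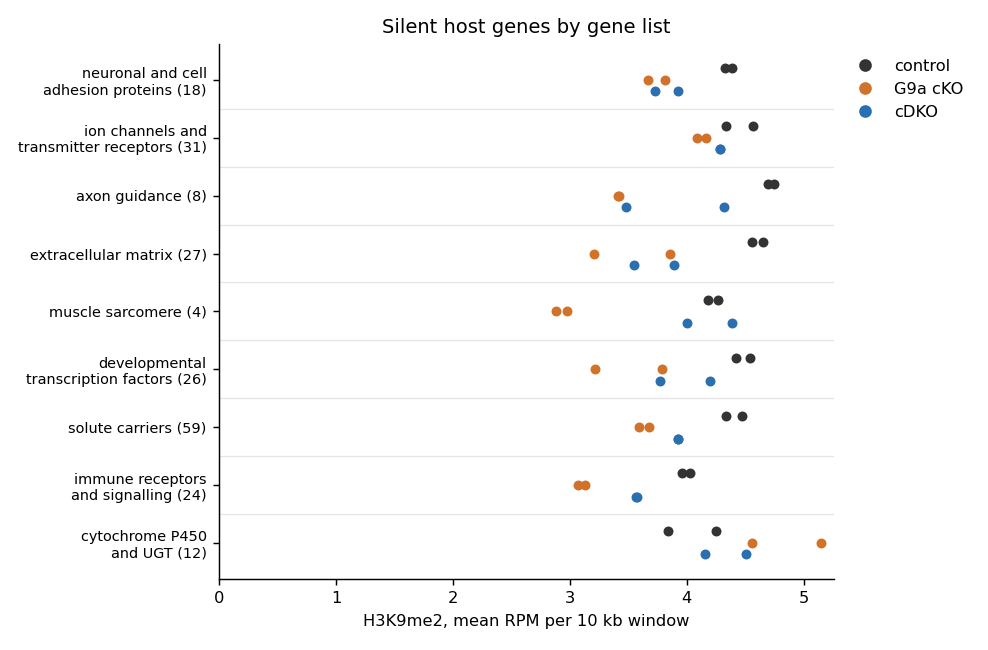
H3K9me2 (RPM per 10 kb window, pooled over the member windows of all host genes of a list) in each library; numbers in brackets are host genes. In extracellular matrix genes the controls lie at 4.56 and 4.65 RPM and the mutants at 3.2 to 3.89; in cytochrome P450 and UGT genes the G9a cKO libraries, at 5.14 and 4.56, lie above both controls.

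The mutants differed from each other at few silent hosts. limma called 2 of 736 hosts higher and 5 lower in cDKO than in G9a cKO, where 0.632% and 0.773% of all gene bodies were called, and the median change was 0.06. Actn2, the sarcomeric alpha-actinin, had 4.5 and 4.38 RPM in controls, 2.15 and 2.45 in G9a cKO, then 3.98 and 4.25 in cDKO. Trpc6, a calcium channel whose host locus lies on the other strand, had 4.18 and 4.55 RPM in controls, 7.93 and 8.69 in G9a cKO, then 5.17 and 3.91 in cDKO. In both genes the cDKO libraries were closer to the controls than the G9a cKO libraries were. Of the 5 lower calls, those of Olfr836 and Ahnak passed the filter only through G9a cKO. None of the 7 calls remained without either cDKO library, and without G9a cKO replicate 1 or 2 there were 34 and 71 calls.

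RNA of the hosts in the mutants is given as a description, because low control RNA chose them. RNA was called higher at 8 host genes (0.5%, with 1.05% over all 38540 loci) in G9a cKO and at 104 (6.5%, with 4.32% over all loci) in cDKO, and lower at none. Zfp536, a neuronal zinc finger repressor, had 0 to 2 RNA reads in the controls of the G9a cKO cross and 9 to 35 in G9a cKO, and 0 to 3 and 11 to 29 in the other cross. Its H3K9me2 was 4.81 and 4.82 RPM per window in controls, 3.13 and 3.36 in G9a cKO, then 3.39 and 4.15 in cDKO. Slc9a9 had 1 RNA read in each control of its cross and 10 to 12 in G9a cKO. Among the 6 RNA-higher hosts tested in G9a cKO, H3K9me2 changes ran from −0.71 to −0.06. Their median was −0.58, beside −0.16 over all silent hosts tested and −0.28 over those with 10 or more windows. The 6 ran from 24.4 to 561 kb in length, with Zfp536 at 271 kb and Slc9a9 at 561 kb. All tested hosts had a median of 60.2 kb, and length was not matched. Of the 6, 3 were called lower: Zfp536, Slc9a9 and Smoc1, a matrix calcium-binding protein. The Smoc1 call was lost without control replicate 2 or G9a cKO replicate 1. The RNA-higher hosts G2e3 and Brsk1 were below the filter and did not both fall. G2e3 had 2.62 and 2.77 RPM in controls and 4.85 and 5.86 in G9a cKO. Brsk1 had 3.97 and 3.24 RPM in controls and 6.46 and 2.70 in G9a cKO. Among the 63 tested in cDKO, H3K9me2 changes ran from −0.74 to 1.12 with a median of −0.11. Beside this, the median was −0.09 over all silent hosts tested, and 6 of the 63 were called lower and 3 higher. Mll1, which encodes a histone H3 lysine 4 methyltransferase, had 27 and 34 RNA reads in cDKO, 0 to 1 in its controls, and H3K9me2 of 4.01 and 3.99 RPM in controls and 4.97 and 3.8 in cDKO.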

How the data were processed

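The authors deposited H3K9me2 in 10 kb windows and RNA at transcript loci as log2 values, with a column for each library. The submitters' processing notes name GRCm38, Trim Galore, Bowtie2, HISAT2 2.1.0 and Bismark 0.19.0, with no role. Strand use, counting and filters are not given in the sources used here. From the values, they are log2 RPM where a feature lacking reads stands at 0.9 read. Reads recovered from them were whole (within 0.02) for 100% of values. The window file has 4 further columns that match no sample and were not used.

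Groups came from genotypes in the labels. Silent, transcribed (control RNA mean of 4 or more) and outside-locus windows were compared per library by exact permutation. Windows (log2 as deposited, with a read in at least 1 library) and gene bodies (summed recovered reads, 0.5 read added, group-blind filter of 10 RPM on the mean) were fitted with limma 3.58.1 in R 4.3.3, trend and robust, a mean per group over the 6 libraries, two-sided, with Benjamini-Hochberg adjustment over every feature tested; called means adjusted p under 0.05. A gene counts once, by its locus with the most windows. The fit was tested on simulated data. Python 3.11.15, pandas 2.3.3, numpy 2.4.6 and matplotlib 3.10.9 were also used, and files were read in R with data.table (version 1.17.8).

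Genes were named by rule: the 10 hosts with most windows, the 5 largest called changes each way per comparison with no overlap of libraries, the 5 highest and 5 lowest control levels among hosts of at least 10 windows, and the 3 longest hosts per gene list. Other genes, including those called in a list and those with higher RNA, were chosen after their values were seen. The members and lists were chosen with earlier results of these data known. No count model was fitted, although whole reads were recovered from the deposited log2 values. Instead, limma voom on recovered reads was run as an alternative. Some named genes are not reported here.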

Additional observations from a re-analysis of the deposited data

Results flagged for a closer look

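Silent gene bodies called between the mutants by a test of the difference itself (limma, cDKO against G9a cKO) numbered 7. Of these, Olfr836 (log2 difference −1.58) and Ahnak (−1.25) passed the filter on low values only through G9a cKO, where they were higher, so their differences are a description, with no test. H3K9me2 was lower in cDKO than in G9a cKO at Abcg3 (−1.13, adjusted p = 0.0412), 1700024B05Rik (−1.07, adjusted p = 0.0482) and Trpc6 (−0.88, adjusted p = 0.0176). It was higher in cDKO at Actn2 (0.82, adjusted p = 0.0446) and Tpcn1 (1.28, adjusted p = 0.0338). Ahnak, a giant scaffold protein, had 5.60 and 5.70 RPM per window in controls, 7.81 and 8.11 in G9a cKO, then 4.06 and 2.66 in cDKO. Tpcn1, an endolysosomal channel, had 3.72 and 3.22 RPM in controls, 1.62 and 2.25 in G9a cKO, then 4.93 and 4.65 in cDKO. Abcg3, an ABC transporter family member, had 5.06 and 4.83, 10.1 and 6.91, and 4.26 and 3.37 RPM in the same order, and its host locus, like that of Trpc6, lies on the other strand than the gene. 1700024B05Rik had 2.72 and 2.40 RPM in controls, 3.77 and 5.05 in G9a cKO, then 2.09 and 2.02 in cDKO. Olfr836 rests on 2 windows. None of the 7 was called without either cDKO library, and without either control Olfr836 and Trpc6 were the 2 still called, with adjusted p-values of up to 0.198 over the alternatives tried, and their causes were not tested.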

How the results depend on the processing

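The silent-over-transcribed differences of each mutant from control kept their direction under every alternative tried. Leaving out 1 library gave −0.36 to −0.32 in G9a cKO and −0.44 to −0.37 in cDKO. The silent-over-transcribed mean over all libraries, near 0, ran from −0.051 to 0.040 without 1 library and became −0.0075 without the top 1% of windows and −0.0100 with at most 3 RNA reads in every control. Silent over outside-locus windows was 0.0241 with windows that have a read and −0.0492 against windows within 50 kb. Without 1 library it ran from 0.0798 to 0.0995. By medians it was 0.0285, with 0 in every mutant library, where a window holds few whole reads. With those values at 0 the sign-flip test cannot go below its exact p of 0.5. The cDKO difference from control by medians, −0.0854, comes from the control values alone, so medians do not test it. Against outside-locus windows the cDKO enrichment turned to 0.0265. Member windows called in G9a cKO (110) became 476 with all windows, 46 with 10 reads or more, 548 with 2 reads added, 0 with only the 4 libraries, 739 by voom, 213 centred, and 0 to 439 without 1 library. In cDKO (0) they became 161 with all windows, 5 with 2 reads added, 180 by voom, and 0 to 35 without 1 library. Between the mutants (0) they became 5 with only the 4 libraries, 1 by voom, and 0 to 5 without 1 library. Host genes called in G9a cKO (199) became 300 by voom and 68 to 244 without 1 library. In cDKO (73) they became 151 with only the 4 libraries, 168 by voom, 138 centred, and 8 to 151 without 1 library. Between the mutants (7) they became 2 with no filter or only the 4 libraries, 14 by voom, 12 centred, and 0 to 71 without 1 library. The causes were not tested. Of the named calls, 23 of 55 in G9a cKO and 4 of 27 in cDKO held in every alternative tried (Olfr836 and 2900092C05Rik among them, which passed the filter only through G9a cKO), and each kept its sign. With 1 library left in a group, it is assumed to vary like the others. Voom, centring, windows with a read, flanks and strand were chosen after seeing the data. The planned count models and TMM scaling were not run, and limma voom and median centring were run in their place. No paired analysis was possible because the labels give no pairing between the H3K9me2 libraries of different genotypes. Mutant depth (4.26 to 7.42 reads per member window) limits single windows.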

Other observations

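By chromosome, the silent windows measured against all windows of the same chromosome fell below both controls in both G9a cKO libraries on 17 of 19 autosomes and in both cDKO libraries on 16. Chromosome 16 had the lowest value in G9a cKO, at a log2 ratio of −0.32 and −0.25 over 223 member windows, with 0.10 and 0.12 in controls and −0.17 and −0.09 in cDKO. Chromosome 19, which holds Cyp2c67 and the Slc22a hosts, was the highest in G9a cKO, at 0.14 and 0.06, with −0.03 and −0.02 in controls. In the 201 hosts of at least 100 kb, the window holding the host start averaged 4.02 RPM in controls and the window before it, where outside all loci, 4.25, with 3.49 and 3.76 in G9a cKO, then 3.68 and 3.87 in cDKO.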
